A study of Homo sapiens with 18 samples.

Results

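Mitochondrial DNA (mtDNA) is copied, packaged and transcribed by proteins that are themselves encoded in the nucleus, and 10 of these nuclear genes are described here in cells that had lost their mitochondria. The genes were chosen by name: TFAM, POLRMT, TFB1M, TFB2M, POLG, POLG2, SSBP1, LRPPRC, NRF1 and PPARGC1A, which are 10 of the 57500 genes in the count table. All 10 were among the 16994 genes that passed the filter on low counts, although PPARGC1A was near that limit. The genes were chosen with earlier results of these data known, but not by their values.

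RNA-seq of polyadenylated RNA was available for 18 libraries of IMR90, an established line of human fibroblasts, in 6 groups of 3. Prol cells were proliferating, and Sen (IR) cells had been made senescent by X-ray irradiation. Sen (IR) + CCCP cells were irradiated and then exposed from the following day to CCCP, an uncoupler of the mitochondrial membrane potential, which in this line, engineered for that purpose, triggers the removal of mitochondria by mitophagy. The other groups were depleted in the same way and then received sodium acetate (Sen (IR) + CCCP + acetate), transfected mtDNA late in the culture (Sen (IR) + CCCP + mtDNA) or both (Sen (IR) + CCCP + acetate + mtDNA). Acetate is taken up and turned into acetyl-CoA outside mitochondria, so it can supply acetyl groups that mitochondria no longer export. The labels do not say whether Prol and Sen (IR) cells were of the engineered line, and if they were not, the line and the depletion cannot be told apart in comparisons with these groups. Exposure to CCCP itself and the loss of mitochondria cannot be told apart in this design either. The labels give no passage, clone or culture for a replicate, and they do not say whether groups without mtDNA had a mock transfection. By the labels, the p-values therefore measure the spread between these libraries, which may be technical. The paper's legends for heat maps of these treatments give n = 3 independent experiments, without tying them to the numbered libraries.

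The mtDNA-maintenance machinery has a small set of parts. TFAM coats and bends mtDNA and, with TFB2M, places the mitochondrial RNA polymerase POLRMT at its promoters. POLG is the catalytic subunit and POLG2 the accessory subunit of the mtDNA polymerase, and SSBP1 binds the single strands exposed during copying. TFB1M methylates the small ribosomal RNA of mitochondria, LRPPRC stabilises mitochondrial messenger RNAs, NRF1 (nuclear respiratory factor 1) is a transcription factor for many nuclear genes of mitochondria, and PPARGC1A (PGC-1α) is an inducible coactivator of that programme.

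Many of these genes are usually treated as a single programme under NRF1, and their promoters can be read for its motif. The table of RefSeq promoters (GRCh38.p14, 250 bases before to 50 after each start) held 12 windows for 9 of the genes, and NRF1 had none. The NRF1-binding motif, searched as GCGCANGCG on both strands, was in the windows of TFAM, POLRMT, TFB1M, TFB2M and POLG2, that is 5 of the 9 genes, against 7.52% of all 35116 promoters. A gene counted if any of its windows matched, whereas the percentages here and below are of single windows, so the units differ. The 30 bases around each match are given because TFB1M and TFB2M, which both hold it, later moved in opposite directions. Matched bases are in capitals, each sequence runs 5′ to 3′ on the strand of the gene, and overlapping matches were joined.
TFAM: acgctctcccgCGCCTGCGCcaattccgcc
POLRMT: cggcgcggGCGCATGCGCAGGCGcgggccg
TFB1M: gcaggacttaGCGCATGCGCtctcagcacg
TFB2M: gctccgctgttCGCATGCGCaggctctagt
POLG2: cacctccgttgCGCCTGCGCcgtggcctct

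The TFAM window lies at chr10:58385337-58385366 on the plus strand, with the centre of the match 58 bases before the start. The POLRMT window is chr19:633540-633569 on the minus strand, 17 bases before the start, and joins 3 overlapping matches into 15 bases. The TFB1M window, chr6:155314597-155314626 on the minus strand, joins 2 matches 127 bases before the start. The TFB2M window, chr1:246566259-246566288 on the minus strand, has its match 12 bases before the start, and that of POLG2, chr17:64497049-64497078 on the minus strand, 9 bases before it. Other motifs were less frequent among the genes. The ETS motif CCGGAAG (both strands) was in the windows of POLG2, POLRMT, SSBP1 and TFB1M, against 10.3% of all promoters, and its letters are not contained in the NRF1 motif. The YY1 motif AAGATGGCG was found for SSBP1 alone (1.75% of all promoters), and the CRE motif TGACGTCA for 0 of the 9 genes (1.85%). These matches describe letters in a window and not occupied sites.

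Levels are given as CPM, the counts on a gene scaled to a common library size. The libraries held 24624886 to 46224280 counts on genes (median 29620505.5). The 13 protein-coding genes of mtDNA took 2.62% of the counts in Prol and 2.11% in Sen (IR), and between 0.0505% and 0.132% (group means) in the 4 depleted groups, so transcripts of the genome that the 10 genes serve were scarce there. Sen (IR) replicate 3 and the combination's replicate 2 stood apart from the other libraries of their groups: their counts differed by chi-square values of 22.1 to 28.2 per degree of freedom, against 2.77 to 7.69 for the other pairs. All 9 fibroblast markers were detected in each group, although their summed level was 37218 to 40934 CPM in Prol, 20453 to 25400 in Sen (IR) and 4723 to 6931 in the depleted groups, and 7 markers of epithelial, endothelial and blood cells summed to at most 3.85 CPM. The proliferation gene MKI67 averaged 59.1 CPM in Prol, 15.3 in Sen (IR), 30.4 in Sen (IR) + CCCP, 3.19 with acetate, 26.1 with mtDNA and 4.80 with both, so MKI67 moved along with several comparisons below, and its part in them was not tested. In these bulk samples fewer cells of a kind and less RNA per cell cannot be told apart.

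Most of the 10 genes were higher after CCCP-driven depletion. In Sen (IR) + CCCP against Sen (IR), 8 of the 10 genes rose and 1, POLRMT, fell at an adjusted p under 0.05 (edgeR's quasi-likelihood test, Benjamini-Hochberg over all 16994 genes), where 34.0% of all genes tested rose and 31.3% fell. Their median log2 fold change was 0.48, against 0.03 for all genes. The rises were moderate in size: 5 of the 8 also reached a log2 fold change of 0.5, a mark that 20.1% of all genes passed upwards. The counts of 8 and 1 were the same without the libraries that stood apart. On the authors' TPM scale 9 of the 10 genes rose and 0 fell by limma, with SSBP1 called and POLRMT not, and rises made up 78.8% of all called genes there against 52.1% on the TMM scale. These percentages are of the called genes and not of all genes tested, whose median also rose more on the TPM scale.

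**Figure D1:**
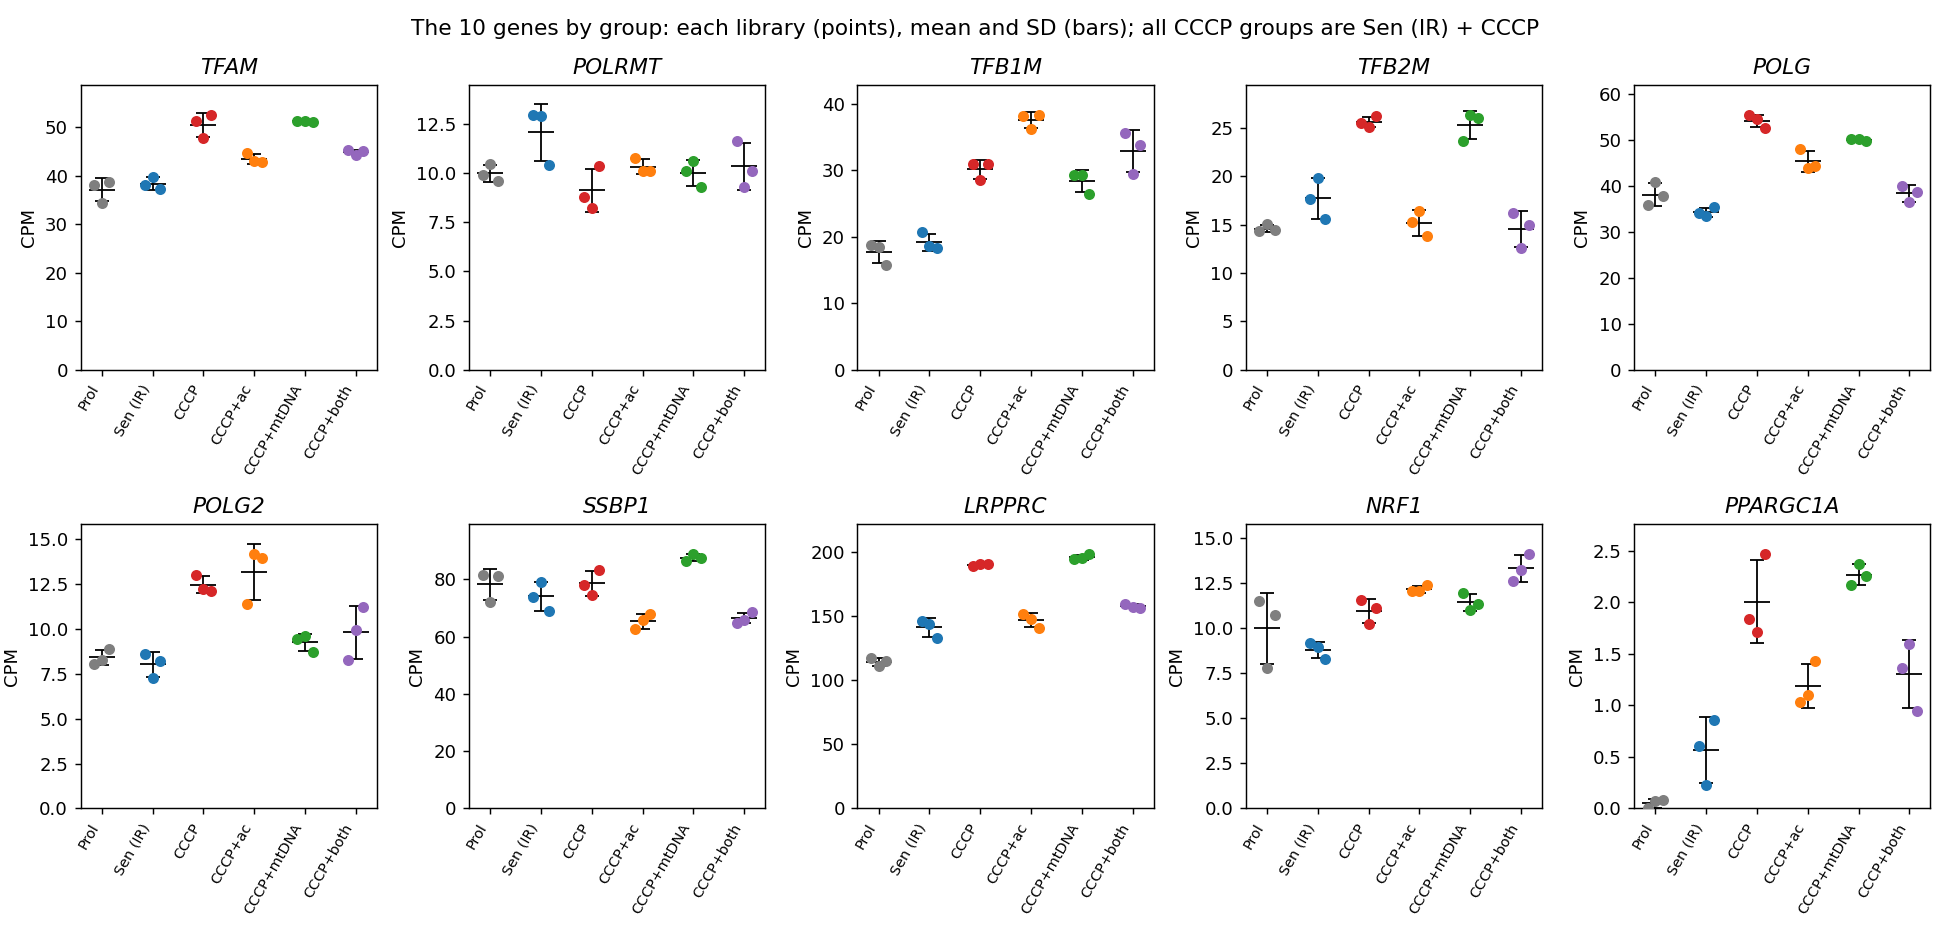
Expression of the 10 genes in CPM (vertical axes from 0) in the 6 groups, with a point for each library and bars for the mean and SD of 3. TFAM, TFB1M, TFB2M, POLG, POLG2, LRPPRC, NRF1 and PPARGC1A sit higher in every Sen (IR) + CCCP library than in every Sen (IR) library, and TFB2M falls back with acetate while TFB1M rises further. How many of all genes separate these groups in the same way was not counted.

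TFAM, the packaging factor of mtDNA, was expressed at 38.2, 34.4 and 38.8 CPM in Prol and 38, 39.9 and 37.4 CPM in Sen (IR). It was at 51.2, 47.8 and 52.5 CPM in Sen (IR) + CCCP. Every depleted library was above every Sen (IR) library, a log2 fold change of 0.39 (SE 0.0513, adjusted p = 6.01e-07 by edgeR). With acetate TFAM was at 44.8, 43.1 and 42.9 CPM, below all libraries with CCCP alone (log2 fold change -0.21, edgeR adjusted p = 0.00104). Acetate thus left TFAM at an intermediate level, still above Sen (IR) by 0.18 on the log2 scale (edgeR adjusted p = 0.00377, in a comparison in which 65.9% of all genes passed). With mtDNA it was at 51.3, 51.3 and 51.2 CPM, which did not differ from CCCP alone beyond the spread of the libraries (edgeR adjusted p = 0.815).

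TFB2M, the transcription factor that opens mtDNA promoters together with TFAM, had the largest fitted fall with acetate among the 10 genes. With single libraries left out, its log2 fold change (-0.80 to -0.66) overlapped that of PPARGC1A (-0.86 to -0.54), so these falls are not ranked. TFB2M was at 14.3, 15 and 14.4 CPM in Prol, 17.7, 19.8 and 15.6 in Sen (IR), and 25.6, 25.1 and 26.2 in Sen (IR) + CCCP. The rise with depletion was 0.53 on the log2 scale (SE 0.0877, edgeR adjusted p = 1.40e-05), with no overlap of the libraries. Acetate brought TFB2M down to 15.3, 16.5 and 13.8 CPM, a log2 fold change of -0.76 (SE 0.0873, edgeR adjusted p = 1.65e-07). This level lay below Sen (IR) (edgeR adjusted p = 0.0354) and did not pass the test against Prol (edgeR adjusted p = 0.601, where 66.5% of all genes passed). With mtDNA alone the values were 23.7, 26.3 and 26 CPM, and with both treatments 16.2, 12.6 and 14.9 CPM, so among the depleted libraries those with acetate and those without it did not overlap.

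TFB1M, the paralogue of TFB2M that acts on ribosomal RNA, moved the other way with acetate. It was at 18.7, 18.5 and 15.8 CPM in Prol, 20.7, 18.7 and 18.3 in Sen (IR), and 30.9, 28.5 and 31.0 in Sen (IR) + CCCP (log2 fold change 0.64, SE 0.0775, edgeR adjusted p = 1.87e-07). Acetate took it to 38.2, 36.1 and 38.2 CPM, above every library with CCCP alone (log2 fold change 0.32, SE 0.0737, edgeR adjusted p = 8.58e-04). With mtDNA it was at 29.2, 29.3 and 26.5 CPM and with both at 35.6, 29.4 and 33.8 CPM, and neither group passed the test against CCCP alone (edgeR adjusted p = 0.486 and 0.130). The combination's lowest value, 29.4 CPM, came from replicate 2, which stood apart, and without that library TFB1M passed the test there (log2 fold change 0.22, edgeR adjusted p = 0.0127).

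The counts of TFB1M carry a limit of their own. By the GENCODE v44 annotation, 30.7% of its exon bases (1264 bases) lie over exons of TIAM2, which runs on the opposite strand, and 14.4% over a non-coding gene on its own strand. The strand setting of the counting is not given in the sources used here, so reads from these stretches could be shared or dropped. TIAM2 itself was at 11.5, 12 and 10.7 CPM in Sen (IR) + CCCP and 11.5, 11.9 and 11.3 CPM with acetate, with overlapping libraries (edgeR adjusted p = 0.805).

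The ratio of TFB2M to TFB1M, taken per length within each library, was lower with acetate. Which paralogue is the higher depends on the gene lengths used, and that of TFB1M includes the shared stretches. In CPM, TFB2M averaged below TFB1M in every group, for example 25.6 against 30.1 in Sen (IR) + CCCP. TFB2M was expressed at 1.22 to 1.31 times the TPM of TFB1M in Sen (IR) + CCCP and at 1.20 to 1.46 times with mtDNA. With acetate the ratio was 0.535 to 0.674, and with both treatments 0.633 to 0.675. All 6 libraries with acetate were below 1, and the 12 libraries without acetate lay between 1.13 and 1.57. The mean ratio was 0.601 ± 0.0698 (SD, n = 3) with acetate against 1.26 ± 0.0434 (SD, n = 3) with CCCP alone (p = 0.1 in an exact permutation test, two-sided, which with 3 libraries a group can give no lower p, and 0.15 adjusted over 6 such ratio tests).

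**Figure D2:**
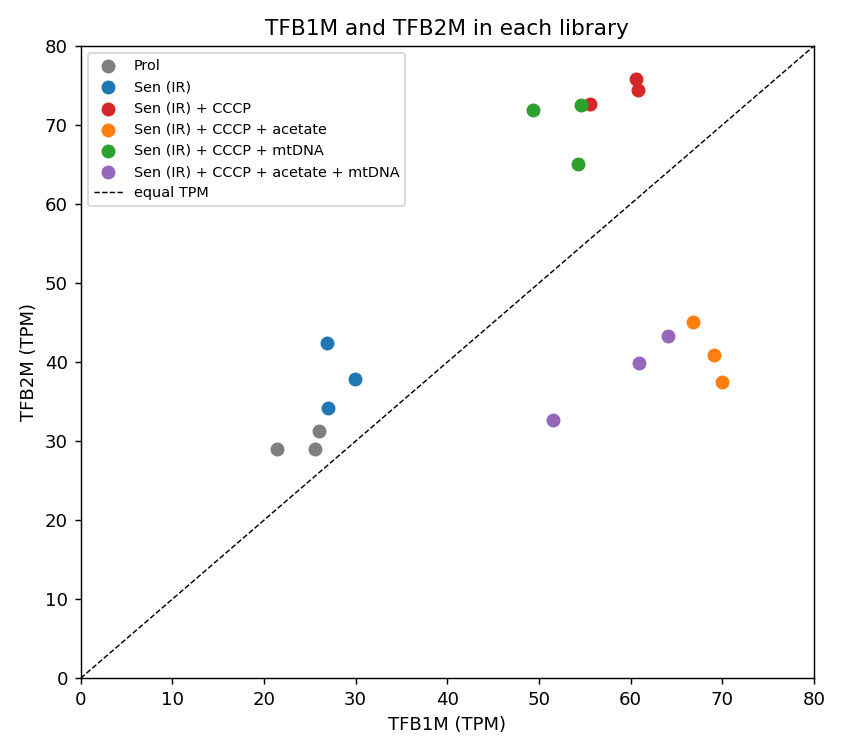
TPM of TFB1M (horizontal axis) and TFB2M (vertical axis) in each of the 18 libraries, coloured by group, with the dashed line at equal TPM. The 6 libraries with acetate lie below the line and the other 12 above it.

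POLRMT, the RNA polymerase of mitochondria, was the exception among the genes of mtDNA transcription. It was at 9.90, 10.5 and 9.59 CPM in Prol, 12.9, 12.9 and 10.4 in Sen (IR) and 8.78, 8.23 and 10.3 in Sen (IR) + CCCP. The highest depleted library (10.3) nearly reached the lowest Sen (IR) library (10.4), and the log2 fold change was -0.42 (SE 0.102, edgeR adjusted p = 0.00113). The direction depends on the scale: on the authors' TPM the median of all genes rose by 0.35 in this comparison, as log2(TPM + 1), where the counts scaled by TMM give 0.03, and POLRMT had 0.02 on that scale. Relative to the median of all genes, POLRMT lay lower on both scales, by -0.44 with TMM and by -0.33 with TPM. The rise of POLRMT in Sen (IR) over Prol (log2 fold change 0.28, edgeR adjusted p = 0.0243) had overlapping libraries and did not pass the test when any of 4 libraries (Prol replicates 1 and 3, Sen (IR) replicates 1 and 2) was left out, with log2 fold changes of 0.21 to 0.25. The depleted groups with acetate, mtDNA or both had means of 10.3, 10.01 and 10.3 CPM and did not pass the test against CCCP alone (edgeR adjusted p = 0.127, 0.405 and 0.105).

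Both mtDNA polymerase subunits rose with depletion and both were lower with the combined treatment. In edgeR on the TMM scale with all libraries, acetate lowered POLG and mtDNA lowered POLG2 at the threshold. POLG, the catalytic subunit, was at 35.9, 40.8 and 37.8 CPM in Prol, 34.2, 33.4 and 35.4 in Sen (IR), and 55.4, 54.5 and 52.6 in Sen (IR) + CCCP. This was a log2 fold change of 0.66 with depletion (SE 0.0539, edgeR adjusted p = 4.30e-10), with no overlap. Acetate lowered POLG to 48.0, 43.9 and 44.3 CPM (log2 fold change -0.26, edgeR adjusted p = 2.42e-04). The combination lowered it further, to 40.0, 36.4 and 38.8 CPM (log2 fold change -0.49 against CCCP alone and -0.24 against acetate, edgeR adjusted p = 5.57e-08 and 0.00526). With mtDNA alone POLG was at 50.3, 50.2 and 49.8 CPM, all below the libraries with CCCP alone but short of the threshold (edgeR adjusted p = 0.156). That fall passed in edgeR with only the groups compared (adjusted p = 0.0424) and with library totals without TMM (0.0281). It also passed by limma on log2(TPM + 1) (adjusted p = 0.0359) and on log2(TPM + 0.1) (0.0392).

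POLG shares 5.53% of its exon bases with FANCI, a DNA repair gene on the opposite strand, and 9.46% with POLGARF, read from the same transcript. FANCI was at 21.2 CPM in Sen (IR), 42.2 in Sen (IR) + CCCP and 14.8 with acetate on average, so it moved in the same directions as POLG. Its part in the POLG counts was not tested.

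POLG2, the accessory subunit, was at 8.06, 8.29 and 8.89 CPM in Prol, 8.62, 7.25 and 8.20 in Sen (IR), and 13, 12.2 and 12.1 in Sen (IR) + CCCP (log2 fold change 0.63, SE 0.105, edgeR adjusted p = 1.80e-05). In edgeR on the TMM scale with all libraries it was the single gene of the 10 that passed the test with mtDNA alone. There it fell to 9.43, 9.63 and 8.72 CPM, below all libraries with CCCP alone (log2 fold change -0.43, SE 0.105, edgeR adjusted p = 0.00577). With acetate it was at 11.4, 14.2 and 14 CPM, overlapping CCCP alone (edgeR adjusted p = 0.471). With both treatments it was at 8.28, 9.92 and 11.2 CPM, lower than with acetate (log2 fold change -0.44, edgeR adjusted p = 0.00636) and lower than with CCCP alone (-0.35, edgeR adjusted p = 0.00562). Without the combination's replicate 1, its lowest value, neither passed the test, with log2 fold changes of -0.32 and -0.21 (edgeR adjusted p = 0.0512 and 0.0949). The TPM of POLG was 2.41 to 2.52 times that of POLG2 with CCCP alone, 2.96 to 3.23 times with mtDNA and 1.76 to 2.39 times with acetate, ranges that do not overlap that of CCCP alone (p = 0.1 for each by the same exact permutation test, and 0.15 adjusted over the 6 ratio tests). With both treatments it was 1.96 to 2.74 times, which overlaps CCCP alone (exact permutation p = 0.4, adjusted 0.48).

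SSBP1, the single-strand binding protein of mtDNA, stayed apart from the rise with depletion. It was at 81.4, 72.0 and 81.2 CPM in Prol, 73.8, 79.2 and 69.0 in Sen (IR), and 77.9, 74.6 and 83.1 in Sen (IR) + CCCP, with overlapping libraries in both comparisons. Its log2 fold change with depletion was 0.08 (SE 0.0572, edgeR adjusted p = 0.199) on the TMM scale and 0.51 on the TPM scale, whose median moved by 0.35, so relative to the median of all genes it was 0.06 and 0.15. Acetate lowered SSBP1 to 62.6, 65.7 and 67.7 CPM, below every library of the groups without acetate (log2 fold change -0.26 against CCCP alone, SE 0.0571, edgeR adjusted p = 4.41e-04). With mtDNA it was at 86.2, 88.7 and 87.5 CPM, all above CCCP alone, a log2 fold change of 0.16 that did not pass (edgeR adjusted p = 0.0613), and the combination was at 64.9, 65.9 and 68.4 CPM.

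LRPPRC, which protects mitochondrial messenger RNAs, rose at each of the first steps. It was at 117, 111 and 115 CPM in Prol, 147, 144 and 133 in Sen (IR), and 189, 191 and 191 in Sen (IR) + CCCP, with no overlap between the groups. The log2 fold changes were 0.30 (SE 0.0443, edgeR adjusted p = 4.42e-06) and 0.43 (SE 0.0439, edgeR adjusted p = 1.54e-08). Acetate returned LRPPRC to 152, 148 and 141 CPM, a level that did not differ from Sen (IR) beyond the spread (edgeR adjusted p = 0.276), and mtDNA left it at 195, 195 and 198 CPM (edgeR adjusted p = 0.554 against CCCP alone). With both treatments it was at 160, 157 and 157 CPM, lower than with CCCP alone (log2 fold change -0.27, edgeR adjusted p = 1.70e-05).

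The regulators differed between themselves. NRF1 was at 11.5, 7.77 and 10.7 CPM in Prol, 9.16, 8.98 and 8.30 in Sen (IR), and 11.5, 10.2 and 11.1 in Sen (IR) + CCCP, a log2 fold change of 0.31 with depletion (SE 0.103, edgeR adjusted p = 0.0118). Without Sen (IR) + CCCP replicate 1 this was 0.27 and short of the threshold (edgeR adjusted p = 0.0508). NRF1 was no lower with acetate, at 12.1, 12.1 and 12.4 CPM (log2 fold change 0.15, edgeR adjusted p = 0.194) and, with both treatments, at 12.6, 13.2 and 14.1 CPM (0.28, edgeR adjusted p = 0.0186, and 0.14, limma adjusted p = 0.209, on the TPM scale). Of the 5 genes whose promoters hold the NRF1 motif, 2 fell with acetate (TFAM, TFB2M), 1 rose (TFB1M) and 2 did not pass the test (POLG2, POLRMT), where 28.3% of all genes fell and 28.8% rose. The 4 genes whose promoter windows lack it (POLG, SSBP1, LRPPRC and PPARGC1A) all fell, although the call of PPARGC1A was lost when certain single libraries were left out. Any part of NRF1 in these changes was not tested.

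PPARGC1A was the least expressed of the genes and had the largest fold changes of the 10 in senescence and with depletion. It had 0, 2 and 3 counts in the Prol libraries, 26, 6 and 25 in Sen (IR), and 66, 68 and 68 in Sen (IR) + CCCP, that is at most 0.0780 CPM, 0.230 to 0.861 CPM, and 1.84, 1.72 and 2.47 CPM. Against the 5 counts in all of Prol, Sen (IR) had 57, a ratio of 10.6 after scaling for library size, with an exact 95% interval for counting error of 4.30 to 34.0. For Sen (IR) + CCCP the ratio was 35.7 (15.1 to 111). The step from Sen (IR) to Sen (IR) + CCCP was 1.77 on the log2 scale (SE 0.301, edgeR adjusted p = 2.22e-05), with no overlap. Acetate lowered PPARGC1A to 1.04, 1.10 and 1.43 CPM (log2 fold change -0.72, SE 0.261, edgeR adjusted p = 0.0220), a fall that did not pass without Sen (IR) + CCCP replicate 3 (-0.54), acetate replicate 1 (-0.63) or acetate replicate 2 (-0.64). With mtDNA it was at 2.17, 2.37 and 2.26 CPM. With both it was at 1.36, 1.60 and 0.945 CPM, short of the threshold against CCCP alone (log2 fold change -0.61, edgeR adjusted p = 0.0528) and below mtDNA alone (log2 fold change -0.80, edgeR adjusted p = 0.0143; without the combination's replicate 3, -0.61 and 0.0823).

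In counts over the comparisons, senescence alone moved 5 of the 10 genes: POLRMT, TFB2M, LRPPRC and PPARGC1A rose and POLG fell (log2 fold change -0.15, edgeR adjusted p = 0.0223), where 26.7% of all genes tested rose and 29.9% fell. Leaving out Prol replicate 1 left 3 of these calls. Acetate after depletion lowered 6 (TFAM, TFB2M, POLG, SSBP1, LRPPRC and PPARGC1A) and raised TFB1M, against 28.3% of all genes lower and 28.8% higher. Transfected mtDNA lowered POLG2 and raised 0, against 7.40% lower and 10.7% higher. With both treatments 6 were lower than with CCCP alone (TFAM, TFB2M, POLG, POLG2, SSBP1 and LRPPRC) and NRF1 was higher, against 31.4% lower and 30.3% higher. Without the libraries that stood apart all 10 passed, 7 lower and 3 higher. The shares of all genes given here are from the fit with all libraries and do not apply to that count. It therefore cannot be set against all genes, and no trait of the 10 genes is read from it. Rises made up 50.5%, 59.1% and 49.1% of all called genes in these 3 comparisons on the TMM scale, and 39.5%, 34.0% and 36.0% on log2(TPM + 1).

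Adding mtDNA to acetate changed 2 of the 10 genes, POLG and POLG2, both lower, where 12.6% of all genes passed in either direction. Adding acetate to mtDNA lowered 6 (TFAM, TFB2M, POLG, SSBP1, LRPPRC and PPARGC1A) and raised TFB1M, where 29.9% of all genes were lower and 27.4% higher. These comparisons share libraries with each other and with those against CCCP alone. The interaction of acetate and mtDNA, the effect of mtDNA with acetate minus that without it on the log2 scale, passed for 0 of the 10 genes in edgeR and in DESeq2 alike, with 0 at an unadjusted p under 0.05 in either tool, against 0.659% of all genes in edgeR. The fitted interactions ranged from -0.13 to 0.07.

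Several of the smaller calls rested on single libraries. In senescence POLG did not pass without Prol replicate 2 (log2 fold change -0.11) nor on the TPM scale (-0.07), and TFB2M did not pass without Prol replicate 1 (0.24) or Sen (IR) replicate 2 (0.17), whereas NRF1 passed without Prol replicate 2 (-0.34) and SSBP1 without Sen (IR) replicate 2 (-0.15). SSBP1 also passed with depletion without Sen (IR) replicate 2 (0.15), and with mtDNA without Sen (IR) + CCCP replicate 3 (0.21). With mtDNA SSBP1 passed too by DESeq2's Wald test (adjusted p = 0.0481) and in edgeR with only the groups compared (adjusted p = 0.0272). With both treatments against CCCP alone, TFAM did not pass without Sen (IR) + CCCP replicate 1 (-0.13) or 3 (-0.11) and NRF1 without replicate 2 (0.26), whereas PPARGC1A passed without the combination's replicate 2 (-0.75). PPARGC1A also passed there with DESeq2's Wald test (adjusted p = 0.0474), with no filter on low counts (0.0369), with only the groups compared (0.0478), with library totals (0.0152), and by limma on log2(TPM + 1) (0.0065), on log2(TPM + 0.1) (0.0437) and on log2(TPM + 1) after size factors (0.0353). POLRMT passed with acetate (0.30) and with both (0.32) without Sen (IR) + CCCP replicate 3, and with both (0.28) without the combination's replicate 2. TFB1M, higher with both treatments than with mtDNA alone (log2 fold change 0.22, edgeR adjusted p = 0.0166), did not pass without mtDNA replicate 3 (0.19) or the combination's replicate 1 (0.17), nor on log2(TPM + 1) (0.15).

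**Figure D3:**
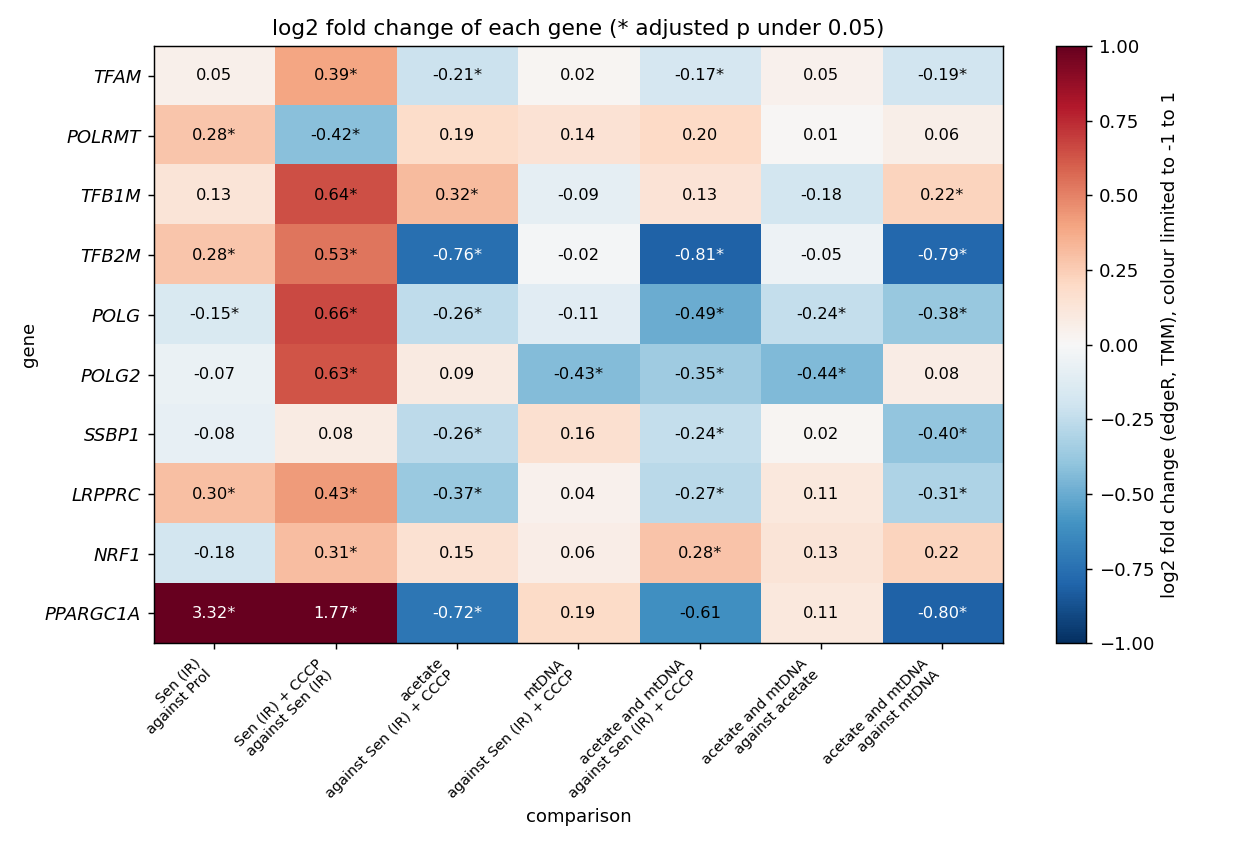
Log2 fold change of each of the 10 genes (rows) in the 7 comparisons (columns) from edgeR on the TMM scale, with an asterisk where the adjusted p was under 0.05 and the colour limited to 1 in each direction. The columns with acetate share falls of TFAM, TFB2M, POLG, SSBP1 and LRPPRC in the comparisons with groups that lack it, and the mtDNA column has a single called gene, POLG2.

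Ordered by mean CPM over the 6 groups, the genes gave 50 steps between neighbouring groups, of which 14 passed the test and 36 did not. Neighbours were picked by these same means as the closest groups, so steps that did not pass were favoured by the ordering. How many such steps pass over all genes was not counted. Prol or Sen (IR) was lowest for TFAM, POLG, POLG2, TFB1M, LRPPRC, NRF1 and PPARGC1A. For SSBP1 the lowest were the groups with acetate. For TFB2M the combination was lowest, level with Prol (14.6 CPM in both, edgeR adjusted p = 0.955). For POLRMT Sen (IR) + CCCP was lowest and Sen (IR) highest, and these groups differed at the threshold, as given above. None of the 5 neighbouring steps of POLRMT or of NRF1 passed the test. For TFAM the steps from Sen (IR) to acetate and from the combination to CCCP alone passed, for POLG those from Sen (IR) to Prol, from the combination to acetate and from acetate to mtDNA, and for TFB2M those from acetate to Sen (IR) and from there to mtDNA. POLG2 had a passing step from the combination to CCCP alone, TFB1M from Sen (IR) to mtDNA, SSBP1 from the combination to Sen (IR), and PPARGC1A from Prol to Sen (IR) and from there to acetate. For LRPPRC the order rose from Prol through Sen (IR), acetate, the combination and CCCP alone to mtDNA, and the steps from Prol to Sen (IR) and from the combination to CCCP alone passed (edgeR adjusted p = 4.42e-06 and 1.70e-05). Compared per length, in TPM, the genes of Sen (IR) + CCCP ranged from LRPPRC at 104 ± 0.11 (SD, n = 3) and SSBP1 at 84.4 ± 4.6 down to POLRMT at 9.53 ± 1.1 and PPARGC1A at 0.990 ± 0.20. TFAM at 48.3 TPM was expressed at 5.09 times POLRMT on average in those libraries, against 2.93 times in Sen (IR) and 3.41 times in Prol.

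Wider lists of the same pathway were counted in the same way, and they hold none of the 10 genes. Of 18 genes of mtDNA replication and nucleotide supply, 12 rose and 3 fell with depletion, with a median log2 fold change of 0.24 against 0.03 for all genes, of which 34.0% rose and 31.3% fell. With acetate 11 fell and 3 rose, with a median of -0.38 against 0.01, where 28.3% of all genes fell and 28.8% rose. Transfected mtDNA raised 1 and lowered 2 (10.7% and 7.40% of all genes), senescence alone raised 4 and lowered 5 (26.7% and 29.9%), and the combination raised 3 and lowered 10 against CCCP alone (30.3% and 31.4%). The counts for mtDNA and senescence were close to the shares of all genes.

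TWNK, the helicase that opens mtDNA ahead of POLG, had the largest rise of this list with depletion, from 7.58, 7.02 and 7.92 CPM in Sen (IR) to 27.5, 26.6 and 27.0 CPM (log2 fold change 1.84, edgeR adjusted p = 1.28e-14). ATAD3B, an inner membrane protein, had the largest fall (-0.44). With acetate the largest fall was that of FEN1, a flap nuclease of nuclear DNA replication and repair, from 27.4, 27.4 and 29.6 CPM to 9.95, 9.32 and 9.07 CPM (-1.58), and the largest rise that of RRM2B, the p53-inducible subunit of ribonucleotide reductase, from 318, 332 and 318 CPM to 562, 571 and 571 CPM (0.82). RRM2B also rose most with mtDNA (0.15) and with both treatments (0.95). DNA2, a nuclease and helicase of nucleus and mitochondria, fell most with mtDNA (-0.41) and with both (-1.78), and in senescence alone EXOG rose most (0.59) and PRIMPOL fell most (-0.67). FEN1 and DNA2 also serve nuclear DNA, and MKI67 moved in the same direction as both with acetate, from 30.4 to 3.19 CPM.

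Of 21 genes of mitochondrial RNA synthesis, processing and decay, 11 rose and 4 fell with depletion (median 0.20; 34.0% and 31.3% of all genes), and 10 fell and 2 rose with acetate (median -0.19; 28.3% and 28.8% of all genes). Senescence alone raised 8 and lowered 1 (26.7% and 29.9%), mtDNA raised 1 and lowered 3 (10.7% and 7.40%), and the combination raised 3 and lowered 14 against CCCP alone (30.3% and 31.4%). TBRG4, an RNA-binding FASTK protein, rose most with depletion (0.95), and FASTKD2, another of that family, fell most with acetate, from 73.4, 72.6 and 72.9 CPM to 41.2, 40.6 and 39.6 CPM (-0.85). REXO2, an oligoribonuclease, fell most in senescence (-0.15) and with depletion (-0.31) and rose most with acetate (0.37), and TRMT10C, a subunit of mitochondrial RNase P, rose most in senescence (0.56).

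The single rise of that list with mtDNA was large. PNPT1, an RNA-degrading enzyme of mitochondria that is also induced by interferon, went from 39.7, 38.9 and 38 CPM with CCCP alone to 220, 159 and 198 CPM with mtDNA (log2 fold change 2.31, SE 0.223, edgeR adjusted p = 1.10e-07). With both treatments it was at 76.6, 188 and 74.2 CPM, and the high value belongs to replicate 2, which stood apart. The log2 fold change of the combination was 1.53 (edgeR adjusted p = 3.34e-06), and 0.97 without that library (edgeR adjusted p = 3.51e-10). MTERF2, a mitochondrial termination factor family member, fell most with mtDNA (-0.52) and PRORP, the nuclease subunit of RNase P, with both treatments (-0.94).

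Of 19 regulators of mitochondrial biogenesis, 14 rose and 1 fell with depletion (median 0.49; 34.0% and 31.3% of all genes), and with acetate 7 rose and 7 fell (median -0.04; 28.8% and 28.3% of all genes). Senescence alone raised 3 and lowered 10 (26.7% and 29.9%), mtDNA raised 3 and lowered 1 (10.7% and 7.40%), and the combination raised 8 and lowered 5 against CCCP alone (30.3% and 31.4%). HCFC1, a host cell factor that binds coactivators of the PGC-1 family, rose most with depletion, from 31.8, 36.4 and 36.9 CPM to 105, 112 and 109 CPM (log2 fold change 1.64), and PRKAA1, a catalytic subunit of AMPK, fell most (-0.16). NRIP1, a corepressor, fell most in senescence (-1.37). PPARGC1B, the closest relative of PPARGC1A, rose most there, from 5 counts in all of Prol to 22 in Sen (IR), a scaled ratio of 4.10 (exact 95% counting interval 1.52 to 13.9). ESRRG rose most and PERM1, a muscle regulator of PGC-1, fell most both with acetate (1.04 and -1.47) and with the combination (1.14 and -1.71), at levels of at most 5.11 and 1.49 CPM in these groups. With mtDNA MYC rose most (0.48) and PRKAA1 fell most (-0.18).

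**Figure D4:**
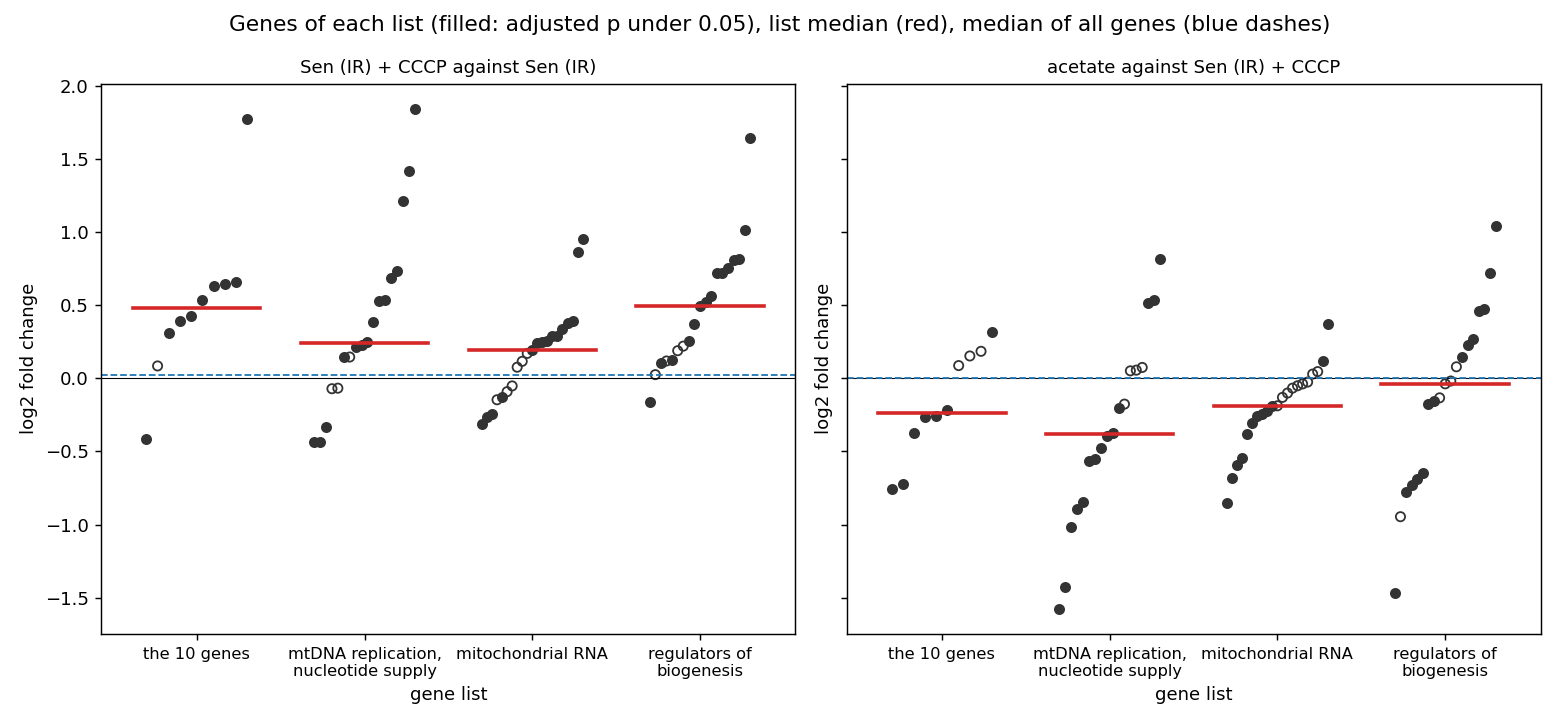
Log2 fold changes (edgeR, TMM scale) of the 10 genes and of the 3 wider lists with depletion (left) and with acetate after depletion (right), with filled points for an adjusted p under 0.05, a red line at the list median and blue dashes at the median of all genes. The list medians lie at 0.48, 0.24, 0.20 and 0.49 on the left, and those of the 10 genes and of the replication and RNA lists lie below 0 on the right.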

How the data were processed

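RNA-seq libraries of 18 samples in 6 groups were analysed, grouped by their titles. Per the submitters' processing notes, the tools were Trimmomatic 0.36 for trimming, STAR 2.5.2b for alignment (GRCh38) and featureCounts of Subread 1.5.2 for counting, and the deposited counts are raw, per gene. The authors also deposited TPM, counts corrected for gene length and library size. The annotation release and strand setting are not given in the sources used here. The tables held 0 value columns without a sample and 485 genes without a symbol, which stayed in the fit.

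In edgeR 4.0.16 (R 4.3.3), counts were scaled by TMM (library factors from 0.874 to 1.13), filtered with filterByExpr to 16994 genes, and fitted by quasi-likelihood with 6 group means, with Benjamini-Hochberg adjustment over all genes and a threshold of 0.05. CPM use TMM-scaled library sizes. DESeq2 1.42.0 and limma 3.58.1 on log2(TPM + 1) or log2(TPM + 0.1) were alternatives, with others on scaling, filters, groups, a replicate block and libraries left out. Intervals and the floor of 3 counts cover counting error only. In simulated counts for Sen (IR) + CCCP against Sen (IR), run on 16354 genes, edgeR recovered 87.5% of 96 genes changed by 1 on the log2 scale and 74.7% of 99 changed by 0.5, with 10 false calls. The simulation changed few genes, equally up and down, with no library standing apart. In the data 34.0% of all genes rose and 31.3% fell, so these rates do not carry over to the real comparison.

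The 10 genes and the wider lists were chosen with earlier results of these data known. Named beside the 10 genes were the largest rise and fall past the threshold of each wider list in each of the first 5 comparisons, and the 2 genes most correlated with each of the 10. MKI67, TIAM2, FANCI and POLGARF were named after their values or positions were seen. Gene positions and overlaps are from GENCODE v44 (GRCh38), and promoters from RefSeq (GRCh38.p14). Same-numbered replicates of different groups were checked for pairing: the mean correlation of their deviations was 0.0029, and 0 of 45 pairs exceeded 0.1. Of 90 pairs with different numbers, 0 exceeded it too. No pairing by number was seen, although a weak pairing could be missed.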

Additional observations from a re-analysis of the deposited data

How the results depend on the processing

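The numbers of called genes held within 1.5 times under most settings, and the interaction had 0 called under all that were run. A fold requirement of 0.5 on the log2 scale left 1, 5, 2, 0, 1, 0 and 2 genes in the 7 comparisons (in the order senescence, depletion, acetate, mtDNA, both against CCCP alone, both against acetate and both against mtDNA), and the study's DESeq2 rule of a nominal p with the same fold left 1, 5, 2, 0, 2, 0 and 2, so most changes lie under that size. The share of all genes that passed such a fold was counted only for rises with depletion in edgeR (20.1%). The other counts therefore have no share of all genes beside them and do not show whether the 10 genes differ from all genes at this fold. With only the groups compared, senescence had 3, mtDNA 3 and both against acetate 1. For mtDNA there were 2 with DESeq2's Wald test, with limma on log2(TPM + 1), on log2(TPM + 0.1) and with library totals without TMM, and 2 without Sen (IR) replicate 3 and the combination's replicate 2 together (chosen after seeing the data, as were the library totals and TPM after size factors). Leaving out each library in turn gave 3 to 5 genes in senescence, 8 to 10 with depletion, 6 to 7 with acetate, 1 to 2 with mtDNA, 6 to 10 with both against CCCP alone, 1 to 2 against acetate, 6 to 7 against mtDNA and 0 for the interaction. No share of all genes is given beside the counts under these settings.

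Of 59 fold changes, 1055 values under other settings split into 961 with the same direction and call, 32 that lost and 34 that gained a call, and 28 of opposite sign. The sign changed on the TPM scales (+ 1, + 0.1) and with library totals without TMM for POLG2 in senescence (0.0087, 0.0092, 0.029), SSBP1 in senescence (0.00097, 0.00098, 0.013), POLG2 with acetate (-0.023, -0.025, -0.033), TFAM with mtDNA (-0.049, -0.050, -0.046), LRPPRC with mtDNA (-0.0292, -0.0295, -0.024), NRF1 with mtDNA (-0.0106, -0.0112, -0.0062) and TFB1M with both (-0.0081, -0.0083, -0.044), and on the TPM scales for POLRMT with depletion (0.0204, 0.0223). None of these passed the test under the setting that changed the sign. The median of all genes moves with these scales, with depletion from 0.03 to 0.35 on log2(TPM + 1) and 0.29 with library totals, and the share of rises among called genes from 52.1% to 78.8% and 70.6%. Leaving out a library changed the sign of TFAM in senescence (-0.010 to 0.075), TFAM with mtDNA (-0.0079 to 0.061) and TFB2M with mtDNA (-0.036 to 0.040). The replicate number as a block changed none of the 59 calls: with the replicate block 9 genes were called with depletion and 7 with acetate, and the check of pairing found no pairs. PPARGC1A gave no value with at least 10 counts in every library, nor in senescence with only the groups compared.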

Other observations

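Across the 18 libraries, which share 6 groups, the 10 genes fell into no single pattern. On log2 CPM the highest Pearson correlation among the 45 pairs was 0.94 (TFAM and LRPPRC) and the lowest -0.56 (POLG and POLRMT). TFAM and POLRMT had -0.39, TFB1M and TFB2M had 0.14, and POLG and POLG2 had 0.62. These are descriptions over libraries that share groups and depth, with no test.

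The genes outside the list whose patterns were most like each of the 10, by the same measure, were mostly not mitochondrial by name. LRPPRC was closest to DDX21 (0.99) and RSL1D1 (0.99), both nucleolar proteins, and TFAM to NGDN (0.97) and NOLC1 (0.97), which are also nucleolar. SSBP1 was closest to GAR1 (0.94), a nucleolar RNA-modification subunit, and RAD23B (0.93). TFB2M was closest to GLE1 (0.98), an mRNA export factor, and U2AF2 (0.98), a splicing factor, while TFB1M was closest to ZNF174 (0.98) and SCOC-AS1 (0.97). POLG was closest to DPP9 and SPTSSA (0.96 each), POLG2 to TMEM161B (0.92) and YJEFN3 (0.91), POLRMT to SPON2 (0.90) and TMEM179B (0.86), NRF1 to RPGR and FAM105A (0.90 each), and PPARGC1A to ZFPM2-AS1 and TMEM38B (0.97 each).

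The 13 mtDNA-encoded genes themselves all fell with depletion (median log2 fold change -4.28, edgeR). Against CCCP alone their median was 0.27 with acetate and -1.23 with transfected mtDNA, where 11 were lower by edgeR's adjusted p. All 13 were higher with the combination than with mtDNA alone (median 1.49), with replicate 2, which stood apart, included. The share of counts on these genes was 0.0640%, 0.237% and 0.0624% in the combination and 0.0461% to 0.0534% with mtDNA alone, so the ratio of the mean shares was 2.40 with all libraries and 1.25 without replicate 2.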
